A study of Mus musculus with 36 samples.

Results

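The series of odorant receptor genes numbered Olfr1141 to Olfr1318 lies along mouse chromosome 2. Its members were taken by symbol in the GENCODE vM21 annotation: Olfr with a number, running from Olfr1141 to Olfr1318, with no suffix, leaving out 7 symbols (Olfr1215, Olfr1225, Olfr1226, Olfr1240, Olfr1243, Olfr1260 and Olfr1284). This gave 128 genes of the 57010 gene identifiers in the count tables and of the 1107 receptor genes named by Olfr and a number. All 128 were on chromosome 2, of which 127 were annotated as protein coding. Olfr1285 was annotated as a transcribed pseudogene. RefSeq gave 122 of them a name in the MOR system, which groups mouse receptors into families by sequence, and these names fell into 19 families. Of the 7 left-out symbols, 5 were called higher with cis-3-hexenol, at log2 changes of 2.78 to 4.57. Its mixture with octanal also raised 5, at 2.47 to 4.82, and octanal raised 2, at 2.54 and 4.48. The floral fragrance raised 3, mint 4 and their blend 3, at 0.76 to 4.31. None rose with acetophenone, decanal or their mixture. Called lower were Olfr1226 and Olfr1243 with decanal, Olfr1215, Olfr1225, Olfr1226 and Olfr1243 with that mixture, and Olfr1226 with mint. Counts over the 128 therefore do not stand for every receptor in this run of numbers.

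A mature olfactory sensory neuron usually transcribes a single receptor gene from a single allele. The receptor protein couples through the G protein subunit Golf (Gnal) to adenylyl cyclase (Adcy3), and the cyclic nucleotide opens channels that depolarise the cell. Firing leads to phosphorylation of ribosomal protein S6, so ribosomes precipitated with an antibody to phosphorylated S6 (pS6) are enriched in the receptor transcripts of neurons that an odor has activated. Receptor genes lie in large clusters, and close relatives within a cluster are often neighbours.

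The libraries come from pS6 immunoprecipitates of the olfactory epithelium of male wild-type C57BL/6J mice aged 8 weeks. Mice stayed in an odor-free chamber for 4 h and then met 10 µL of odorant on filter paper, or an empty paper, for 90 min. There are 12 groups of 3 mice each, 36 libraries in all, divided into 3 sets that the labels call batches. The AD set holds acetophenone, decanal, their 1:1 mixture and no-odor controls. The OC set holds octanal, cis-3-hexenol, their 1:1 mixture and no-odor controls. The FM set holds a floral fragrance, a mint fragrance, a floral-mint blend and no-odor controls. Controls were never taken from another set, so the 3 odors of a set share theirs.

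Library totals ran from 16039587 to 26388104 counts, and 5428 to 14600 fell on the 128 genes. In these bulk samples, fewer activated neurons of a type and less receptor RNA per neuron cannot be told apart. The 16 listed genes of mature olfactory neurons were all detected, and Omp, the abundant marker protein of these cells, had 4014 to 14058 CPM (counts per 1000000 counts of the library) over the 36 libraries. The list, which also holds the transduction genes Gnal, Adcy3, Cnga2 and Ano2, had 14 genes higher with acetophenone, 6 with decanal, 7 with the AD mixture, 16 with octanal, 12 with cis-3-hexenol, 16 with the OC mixture, 7 with floral, 13 with mint and 11 with the floral-mint blend. None of the 16 fell with any odor. The 7 listed genes of red blood cells also differed between groups. Octanal libraries held 7455 to 23199 CPM of them in sum, hexenol libraries 19543 to 28132 CPM and OC mixture libraries 9098 to 20594 CPM, against 78106 to 92684 CPM in OC controls. In the AD set their sum was 2568 to 13119.8 CPM with acetophenone, 39367 to 42148 CPM with decanal and 30676 to 37220.4 CPM with the mixture, against 15525 to 20998 CPM in controls. In the FM set 5 of the 7 were called higher with floral and none with mint or the blend. Other listed cell types differed too. All 5 neutrophil and marrow genes and all 5 bone genes were lower with octanal and with the OC mixture. With decanal and the AD mixture, 2 of the 5 neutrophil and marrow genes were higher, and 3 and 4 of 5 globose basal cell genes were lower. The part of these differences in the receptor values was not tested.

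Of the 128 receptors, 113 had enough counts to be tested in at least 1 set and 104 in all 3. The 15 that were tested in no set had at most 208 counts over the 36 libraries, and 6 of them had fewer than 10. They were Olfr1141, Olfr1145, Olfr1151, Olfr1153, Olfr1156, Olfr1158, Olfr1163, Olfr1164, Olfr1230, Olfr1248, Olfr1272, Olfr1282, Olfr1285, Olfr1287 and Olfr1310. A gene was called when the quasi-likelihood test of edgeR gave a Benjamini-Hochberg adjusted p under 0.05 over all genes of the set. By this rule 36 members rose with at least 1 of the 9 odors and 24 fell with at least 1, with 8 genes in both counts. That is 31.9% of the 113 tested members higher and 21.2% lower, where 30.2% of all 20476 genes tested in at least 1 set were called higher and 32.3% lower with at least 1 odor. Of the 809 other receptor genes tested, 41.9% were called higher and 12.7% lower. The remaining 61 tested members were called for no odor. Among the 36, 12 rose with 1 odor, 11 with 2, 8 with 3, 3 with 4, 1 with 5 (Olfr1256) and 1 with 6 (Olfr1200).

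The 9 odors gave 118 calls among the members, 81 higher and 37 lower. When each of the 6 mice in the groups compared was left out in turn, 60 of the 81 higher calls and 14 of the 37 lower calls were kept every time. These calls are described below as kept without each mouse. The share of calls kept among all genes was not computed, so the members' shares are not set against those of other genes.

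**Figure D1:**
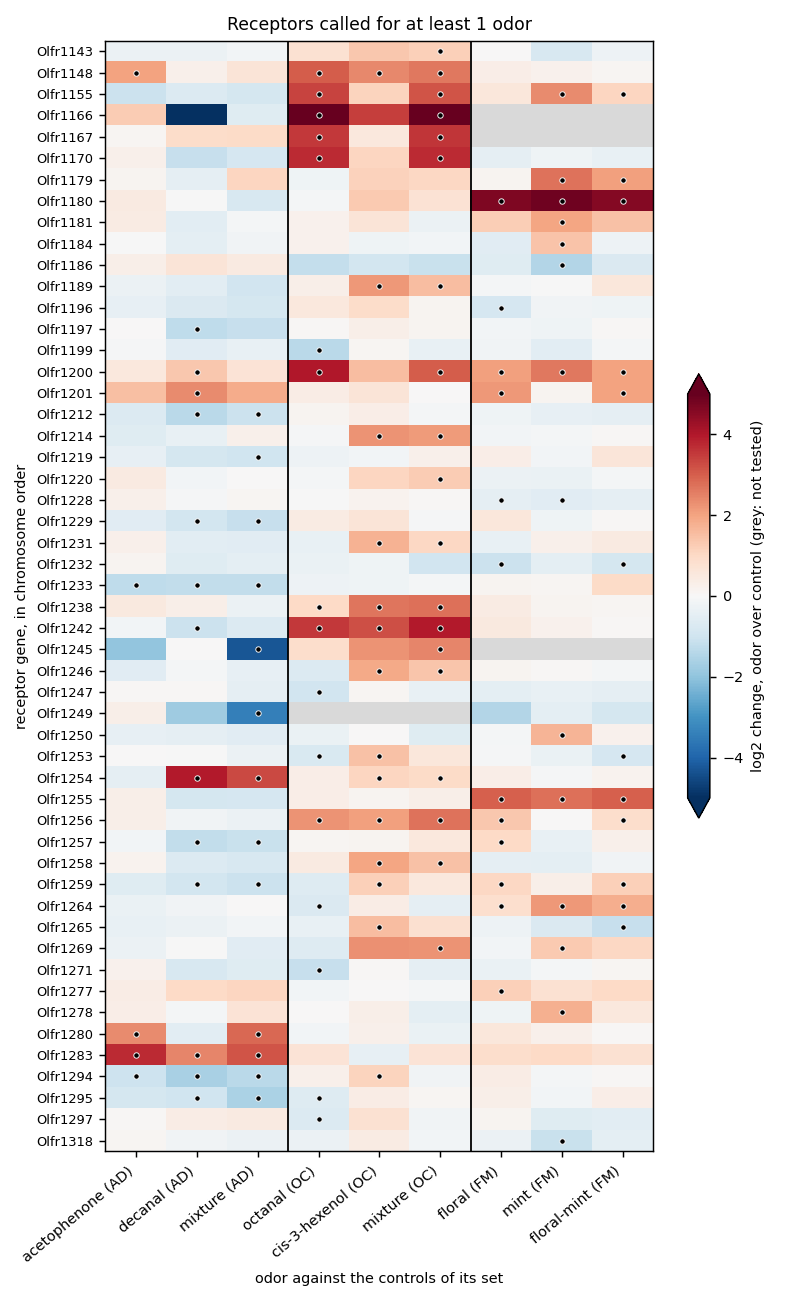
Log2 change (odor over control, colour) of the 52 receptors called for at least 1 of 9 odors, with genes down the page in chromosome order and odors across in their sets. A black dot marks a call at adjusted p under 0.05, and colours stop at 5 and -5. Olfr1200 carries 6 dots and Olfr1180 has dots for the 3 fragrances only.

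Acetophenone raised few of these receptors. Of 110 tested members, 3 rose and 2 fell, where 4.22% of all genes tested were called higher and 1.27% lower. Of the other 758 tested receptor genes, 107 rose and 6 fell. The member with the largest increase was Olfr1283, of family MOR248. It had 23.5, 18.8 and 33.1 CPM with acetophenone, 13.7, 9.90 and 7.72 CPM with decanal and 11.4, 19.3 and 19.5 CPM with the mixture, against 1.63, 2.33 and 1.73 CPM in controls. All 9 odor libraries lay above all 3 controls. Its log2 changes were 3.73 (SE 0.304, edgeR adjusted p = 1.89e-05), 2.46 (SE 0.300, edgeR adjusted p = 0.000142) and 3.14 (SE 0.301, edgeR adjusted p = 3.14e-05), and each was kept without each mouse. Olfr1287, whose coding sequence is 96.7% identical to that of Olfr1283, had 22 counts in total over the 36 libraries. How shared reads were divided between such copies is not given in the sources used here.

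Olfr1280, which lies 3 places before Olfr1283 in the series and shares 93.8% of its coding sequence, was called with acetophenone and with the mixture but not with decanal. It had 6.42, 16.5 and 44.9 CPM with acetophenone, 2.10, 4.72 and 2.38 CPM with decanal and 34.1, 45.3 and 17.8 CPM with the mixture, against 3.94, 4.46 and 4.78 CPM in controls. The acetophenone mice differed widely among themselves, while all 3 mixture libraries were far above the controls. The change was 2.36 with acetophenone (SE 0.552, edgeR adjusted p = 0.0239) and 2.88 with the mixture (SE 0.559, edgeR adjusted p = 0.00276), and -0.52 with decanal (edgeR adjusted p = 0.574). The acetophenone call was lost without acetophenone mouse 3, where the log2 change was 1.39, and without control mouse 1, 2 or 3, where it was 2.29, 2.38 and 2.43 (edgeR adjusted p of 0.0751 to 0.0961). The mixture call was kept without each mouse. Olfr1281, the next gene after Olfr1280 and 89.2% identical to it, was called for no odor of the set, with log2 changes of 0.55, -0.86 and 0.42. The 120 bases of coding sequence with the most differences among these 3 genes are shown to set the receptors that rose beside the neighbour that was not called. They are coding bases 4 to 123, on the plus strand of chromosome 2 in GRCm38, and capitals mark the 31 columns in which at least 1 gene differs.
Olfr1283 (chr2:111368637-111368756): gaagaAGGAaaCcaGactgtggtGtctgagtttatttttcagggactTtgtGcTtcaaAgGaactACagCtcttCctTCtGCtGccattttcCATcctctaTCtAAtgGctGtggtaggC
Olfr1280 (chr2:111315484-111315603): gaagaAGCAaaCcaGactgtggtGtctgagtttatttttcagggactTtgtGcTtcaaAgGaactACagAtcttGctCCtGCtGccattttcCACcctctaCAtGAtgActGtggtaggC
Olfr1281 (chr2:111328424-111328543): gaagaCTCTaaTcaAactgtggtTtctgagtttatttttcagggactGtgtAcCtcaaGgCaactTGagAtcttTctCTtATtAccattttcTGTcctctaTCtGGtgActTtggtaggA

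Olfr1148, the only other member called higher with acetophenone, is of family MOR264. It had 5.17, 8.89 and 4.13 CPM with acetophenone, against 1.71, 1.41 and 1.30 CPM in controls. The groups did not overlap, and the log2 change was 2.03 (SE 0.336, edgeR adjusted p = 0.00312). With decanal and with the mixture it was not called, at 0.26 and 0.65.

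Decanal raised 4 members and lowered 9 of 110, where 10.8% of all genes tested were called higher and 11.5% lower. Olfr1254, of family MOR231, had the largest change. It had 58.3, 44.5 and 64.9 CPM with decanal, 38.0, 35.8 and 32.8 CPM with the mixture and 1.97, 2.74 and 3.29 CPM with acetophenone, against 3.14, 2.69 and 4.95 CPM in controls. Every decanal and mixture library was at least several-fold above every control. The log2 change was 3.96 with decanal (SE 0.230, edgeR adjusted p = 1.77e-07) and 3.31 with the mixture (SE 0.227, edgeR adjusted p = 1.54e-06), both kept without each mouse, and -0.43 with acetophenone (edgeR adjusted p = 0.353). Olfr1200 rose as well, with 6.55, 7.87 and 9.02 CPM with decanal, against 3.58, 2.51 and 3.10 CPM in controls, a log2 change of 1.35 (SE 0.321, edgeR adjusted p = 0.00830). Olfr1201 was also called, at 2.36 (edgeR adjusted p = 0.0290), but lost the call without decanal mouse 1, where the change was 1.55, and without control mouse 1 or 3, where it was 2.55 and 1.92 (edgeR adjusted p of 0.0637 to 0.170).

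With the acetophenone-decanal mixture 3 members rose and 10 fell of 110, where 10.9% of all genes tested were called higher and 10.4% lower. With libraries scaled to the receptor genes the split was 4 higher and 8 lower, and for acetophenone it was 3 higher and none lower. Several abundant receptors were among the lower calls. Each member called lower in the AD set had a higher mean level in AD controls than in OC or FM controls. The part of this in the lower calls was not tested. Olfr1294, of family MOR248, had the highest level per kilobase of exon in controls, at 7.57 CPM per kilobase averaged over the 3 sets. The highest were Olfr1264 in OC controls, at 6.31, and Olfr1257 in FM controls, at 7.30. Set by set, Olfr1294 was at 14.5 in AD, 4.88 in OC and 3.36 in FM controls. It had 8.78, 20.3 and 12.7 CPM with acetophenone, 12.1, 8.48 and 7.00 CPM with decanal and 12.2, 9.91 and 12.2 CPM with the mixture, against 34.2, 21.7 and 30.2 CPM in controls. No odor library reached the lowest control. The log2 change was -1.64 with decanal (SE 0.282, edgeR adjusted p = 0.00117) and -1.33 with the mixture (SE 0.277, edgeR adjusted p = 0.00426), both kept without each mouse. With acetophenone it was -1.05 (edgeR adjusted p = 0.0399), a call lost without each of the mice except acetophenone mouse 2, at -0.80 to -1.21 (edgeR adjusted p of 0.0534 to 0.127).

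Olfr1257, of family MOR232, was the second most abundant member per kilobase in controls averaged over the 3 sets, at 7.08 CPM per kilobase. Set by set it was at 9.41 in AD, 4.53 in OC and 7.30 in FM controls. It had 10.9, 9.66 and 12.7 CPM with decanal and 7.16, 16.6 and 11.7 CPM with the mixture, against 29.0, 22.7 and 26.2 CPM in controls. With acetophenone it had 24.7, 21.8 and 24.1 CPM, which overlapped the controls. Its log2 changes with decanal and the mixture were -1.23 (SE 0.230, edgeR adjusted p = 0.00198) and -1.13 (SE 0.228, edgeR adjusted p = 0.00343). Olfr1229, of family MOR233, fell with decanal and the mixture, at -0.91 and -1.17 (edgeR adjusted p of 0.00423 and 0.00106). Olfr1212, also of MOR233, and Olfr1242, of MOR231, fell with decanal at -1.33 and -1.07. Olfr1295, next to Olfr1294 in the series, fell with the mixture at -1.57 (SE 0.268, edgeR adjusted p = 0.00125). Its decanal call, at -0.98, was lost without control mouse 3, at -0.75, and without decanal mouse 1, at -0.85 (edgeR adjusted p of 0.0702 to 0.0809). Olfr1233 was called lower with all 3 odors at -1.22 to -1.28. The acetophenone call was lost without any 1 of the 6 mice, at -1.04 to -1.52 (edgeR adjusted p of 0.0653 to 0.145). The decanal call was lost without control mouse 2 or 3 or decanal mouse 1 or 2, at -1.04 to -1.19 (edgeR adjusted p of 0.0597 to 0.0861), and the mixture call without control mouse 2 or 3 or mixture mouse 1 or 3, at -1.12 to -1.21 (edgeR adjusted p of 0.0597 to 0.0750). Olfr1249, of MOR231, was low in all libraries. It had 0.196, 0.138 and 0 CPM with the mixture, against 0.954, 1.85 and 0.869 CPM in controls, and the groups did not overlap. Its log2 change with the mixture was -3.40 (SE 0.751, edgeR adjusted p = 0.00587), and -4.03 without mixture mouse 1, and the call was kept without each mouse.

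Set against its component acetophenone, the mixture had 1 member higher and 8 lower of 110, where 11.3% of all genes tested were called higher and 14.4% lower. Scaled to receptor genes the split was 1 and 3, and the count of members called was 5 without acetophenone mouse 1 or mixture mouse 1. Olfr1254 was the higher one, at a log2 change of 3.73 (SE 0.234, edgeR adjusted p = 6.8e-07), and Olfr1148 was lower, at -1.38 (SE 0.327, edgeR adjusted p = 0.00698). Against decanal, Olfr1280 was called higher at 3.41 (SE 0.584, edgeR adjusted p = 0.0201) and no member was called lower, where 0.251% of all genes tested were called higher and 0.0359% lower. That call was lost without decanal mouse 1 or 3 and without mixture mouse 1 or 2, at log2 changes of 3.09 to 3.37 (edgeR adjusted p of 0.0630 to 0.178). At an unadjusted edgeR p under 0.05, 4 of 110 members were lower than with decanal, as were 385 of all 19514 genes tested. DESeq2 called 2 members higher and none lower.

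Of 110 members tested with octanal, 9 rose and 7 fell, where 17.9% of all genes tested were called higher and 14.4% lower. Of the other 749 tested receptor genes, 175 rose and 17 fell. The higher calls include 4 of the 12 members of family MOR174, and 3 of these are at places 18, 19 and 21 of the series, on the minus strand. Olfr1170 had 19.6, 13.5 and 21.8 CPM with octanal, 3.44, 3.08 and 2.24 CPM with cis-3-hexenol and 19.8, 20.4 and 15.3 CPM with the mixture, against 0.545, 2.48 and 1.18 CPM in controls. Olfr1167 had 5.56, 5.67 and 8.25 CPM with octanal, 0.707, 0.411 and 1.33 CPM with cis-3-hexenol and 7.02, 6.28 and 6.86 CPM with the mixture, against 0.297, 0.886 and 0.525 CPM in controls. Both genes were high in every octanal and mixture library and low in every control. With octanal the log2 changes were 3.72 for Olfr1170 (SE 0.371, edgeR adjusted p = 5.91e-06) and 3.52 for Olfr1167 (SE 0.417, edgeR adjusted p = 2.42e-05), and without OC control mouse 2 that of Olfr1170 was 4.45. With cis-3-hexenol they were 1.08 and 0.51 and neither was called.

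Olfr1166 had 1.15, 0.768 and 0.597 CPM with octanal and 1.07, 1.15 and 0.370 CPM with the mixture, against 0 in all 3 OC controls. Taking 3 counts as the floor of each control library, its mean was at least 4.81-fold higher with octanal and at least 4.97-fold higher with the mixture, and both calls were kept without each mouse (edgeR adjusted p of 0.00129 and 0.00123). The 3 coding sequences are 94.3% to 96.2% identical, so the counts of one may hold reads of another. The 120 bases with the most differences are shown for that reason. They are coding bases 393 to 512 on the minus strand, and capitals mark the 16 columns that differ.
Olfr1170 (chr2:88224519-88224638, minus strand): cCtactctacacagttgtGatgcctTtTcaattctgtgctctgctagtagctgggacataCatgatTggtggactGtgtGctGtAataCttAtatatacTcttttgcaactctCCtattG
Olfr1167 (chr2:88149506-88149625, minus strand): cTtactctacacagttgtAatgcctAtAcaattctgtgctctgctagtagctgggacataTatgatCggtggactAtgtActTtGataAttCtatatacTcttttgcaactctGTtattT
Olfr1166 (chr2:88124472-88124591, minus strand): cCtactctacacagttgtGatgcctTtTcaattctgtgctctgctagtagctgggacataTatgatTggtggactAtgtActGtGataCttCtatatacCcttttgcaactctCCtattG
Olfr1155, the other MOR174 member called, had 16.8, 11.6 and 6.65 CPM with octanal and 14.6, 10.5 and 5.18 CPM with the mixture, against 0.446, 1.77 and 1.25 CPM in controls. Its log2 change with octanal was 3.36 (SE 0.469, edgeR adjusted p = 8.93e-05).

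Olfr1242, of MOR231, rose with each odor of the OC set. It had 73.7, 54.9 and 23.9 CPM with octanal, 57.4, 38.4 and 29.2 CPM with cis-3-hexenol and 68.1, 59.4 and 78.9 CPM with the mixture, against 2.63, 5.61 and 5.18 CPM in controls. The lowest odor library was above the highest control in each case. The log2 changes were 3.52, 3.23 and 3.96 (SE 0.381, 0.378 and 0.385), with edgeR adjusted p of 1.16e-05, 0.00021 and 5.96e-06. Olfr1256, of the same family, rose with octanal at 2.25 and with cis-3-hexenol at 2.07 (edgeR adjusted p of 0.000306 and 0.00588), and was also called with the mixture (edgeR adjusted p = 7.72e-05). Olfr1148, which rose with acetophenone, rose here with octanal at 3.02, with cis-3-hexenol at 2.41 and with the mixture at 2.62. The OC controls of Olfr1148 were low, at 0.149, 0.590 and 0.197 CPM, and without OC control mouse 2 its octanal change was 3.86, its hexenol change 3.22 and its mixture change 3.47.

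Of the lower calls with octanal, 1 was kept without each mouse. Olfr1264, the only member of family MOR236, had 14.3, 18.0 and 16.6 CPM with octanal, against 31.1, 24.7 and 25.8 CPM in controls. Its control mean was highest in this set, at 27.2 CPM, against 15.6 CPM in AD and 8.33 CPM in FM controls. Its log2 change was -0.74 (SE 0.174, edgeR adjusted p = 0.00434). The other 6, at -0.65 to -1.36, were each lost without at least 2 mice. Among them, Olfr1247 was at -0.82 and -0.68 without octanal mice 1 and 2, and Olfr1199 at -1.25, -1.04 and -1.19 without octanal mice 1 and 2 and OC control mouse 2 (edgeR adjusted p of 0.0556 to 0.0838).

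Cis-3-hexenol raised 14 of 110 members and lowered none, where 2.58% of all genes tested were called higher and 3.16% lower. No member was lower at an unadjusted edgeR p under 0.05, where 2017 of all 19568 genes tested were lower. DESeq2 called 20 members higher and none lower. The other 749 receptor genes had 54 higher and no lower calls. The median log2 change was 0.43 over the members and 0.45 over the other receptor genes, against 0.05 over all genes tested. Scaling to receptor genes moved the median of all genes by -0.43 with cis-3-hexenol, by -0.32 with the OC mixture, by -0.13 with octanal and with acetophenone and by 0.13 with the AD mixture. With cis-3-hexenol, 13 members were then called higher. Without cis-3-hexenol mouse 2 the count of members called was 9.

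Olfr1238, of MOR231, had 5.61, 4.02 and 2.43 CPM with octanal, 18.3, 11.6 and 9.05 CPM with cis-3-hexenol and 15.8, 12.3 and 13.0 CPM with the mixture, against 2.08, 2.30 and 1.71 CPM in controls. The log2 change was 2.67 with cis-3-hexenol (SE 0.317, edgeR adjusted p = 0.000234). With octanal it was 0.98 (edgeR adjusted p = 0.0290), a call lost without control mouse 1 or 3, at 1.00 and 0.88, and without octanal mouse 1, at 0.65 (edgeR adjusted p of 0.0680 to 0.179). The transcript of Olfr1238 shares a stretch of at least 200 bases at 95% identity or more with other receptor transcripts, so part of its counts may belong to them. Olfr1214, of MOR233, had 8.91, 6.94 and 6.23 CPM with cis-3-hexenol, against 1.78, 1.48 and 1.31 CPM in controls. Its octanal libraries, at 1.00, 2.01 and 1.46 CPM, overlapped the controls, and its log2 changes were 2.26 with cis-3-hexenol (SE 0.284, edgeR adjusted p = 0.000379) and -0.05 with octanal. Olfr1246 rose with cis-3-hexenol at 1.91, Olfr1258 of MOR232 at 1.98, Olfr1189 of MOR237 at 2.16 and Olfr1253 of MOR231 at 1.46, each kept without each mouse (edgeR adjusted p of 0.00380 to 0.00588). In each of these 4 genes the 3 hexenol libraries were above all 3 controls.

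Their mixture raised 19 of 110 members and lowered none, where 17.7% of all genes tested were called higher and 14.8% lower. Scaled to receptor genes the split was 14 higher and 6 lower, so the count of lower calls depends on the scaling. At an unadjusted edgeR p under 0.05, 2 of 110 members were lower, where 4123 of all 19568 genes tested were lower. DESeq2 called 2 members lower. Against cis-3-hexenol, the higher members were Olfr1166, Olfr1167, Olfr1170 and Olfr1155, at 3.63, 3.06, 2.66 and 2.05. They are the 4 MOR174 members that rose with octanal. In total 4 were higher and 7 lower against cis-3-hexenol, where 7.86% of all genes tested were called higher and 5.03% lower, and 5 higher and 2 lower with receptor scaling. Olfr1155 lost this call without cis-3-hexenol mouse 2, at 1.96 (edgeR adjusted p = 0.0575), and Olfr1166 without cis-3-hexenol mouse 2 or mixture mouse 1, at 3.03 and 3.47 (edgeR adjusted p of 0.0663 to 0.0855). None of the 7 lower calls was kept without each mouse, and the count of members called was 3 without cis-3-hexenol mouse 2 or without mixture mouse 1, and 6 and 7 without cis-3-hexenol mouse 3 and mixture mouse 2.

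Against octanal, 3 members were higher and none lower, where 0.0715% of all genes tested were called higher and 0% lower. They were Olfr1214 at 2.19 (SE 0.284, edgeR adjusted p = 0.00185), Olfr1246 at 2.09 and Olfr1238 at 1.76, each of which also rose with cis-3-hexenol against controls. Olfr1214 was kept without each mouse. Olfr1246 lost the call without octanal mouse 1, 2 or 3 or mixture mouse 1, at 1.74 to 2.14 (edgeR adjusted p of 0.0684 to 0.0768). Olfr1238 lost it without octanal mouse 2 or 3 or mixture mouse 1, 2 or 3, at 1.50 to 1.85 (edgeR adjusted p of 0.0676 to 0.186). The count of members called was 1 without octanal mouse 2 or 3 or mixture mouse 1. At an unadjusted edgeR p under 0.05, 2 of 110 members were lower than with octanal, as were 368 of all 19568 genes tested. DESeq2 called 5 members higher and none lower.

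**Figure D2:**
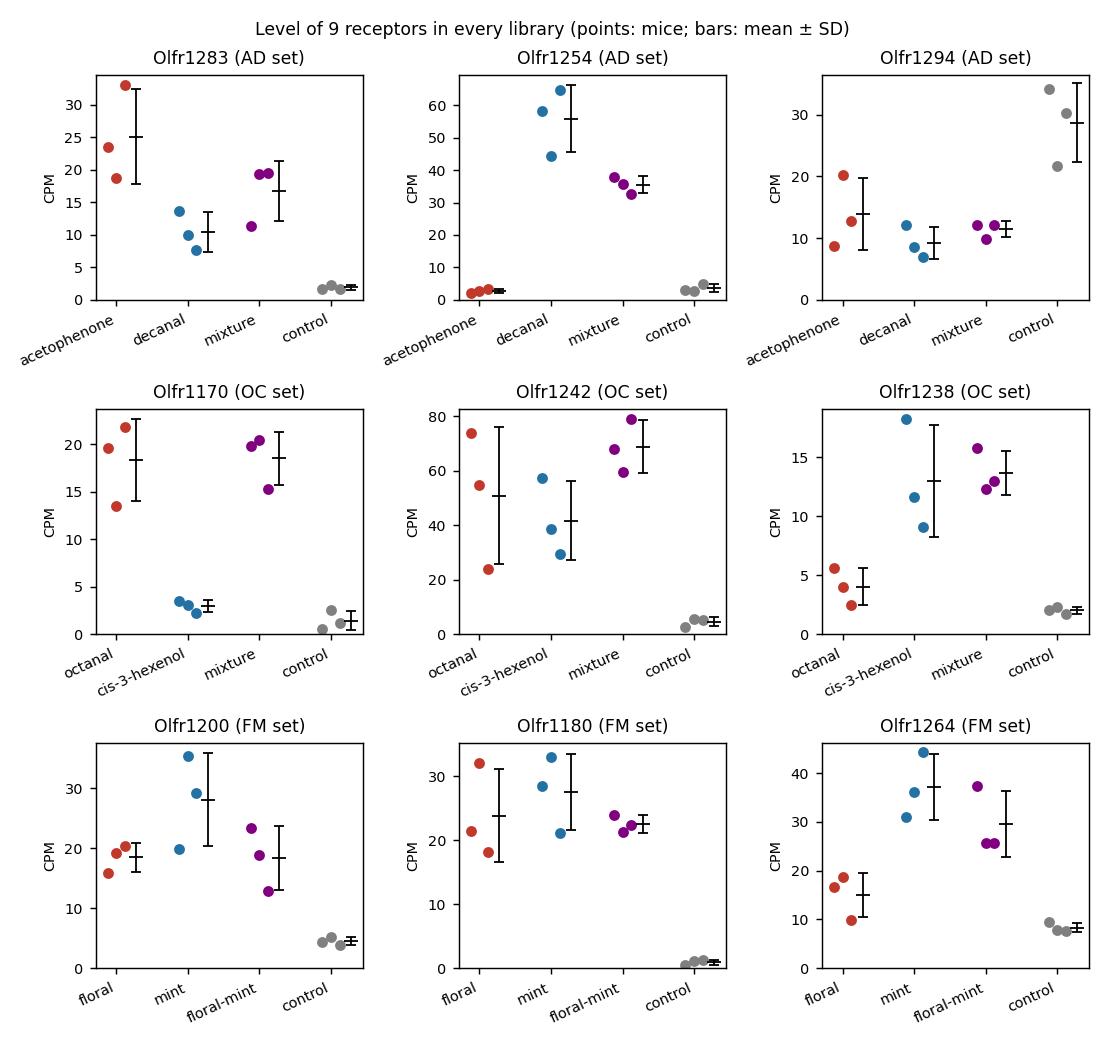
Level in CPM (vertical axis from 0) of 9 receptors in each library of the set named above the panel, with odors at left and controls at right. Points are mice and bars are mean ± SD (n = 3). Olfr1294 is lower with each odor than in the AD controls, at most 20.3 CPM against at least 21.7, while Olfr1170 is high with octanal and the mixture only.

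The floral fragrance raised 9 of 106 tested members and lowered 3, where 8.70% of all genes tested were called higher and 5.35% lower. Mint raised 11 and lowered 3, against 7.10% and 4.07% of all genes. The floral-mint blend raised 9 and lowered 3, against 6.42% and 3.22%. With receptor scaling the floral split was 9 higher and 1 lower. The largest change among members with each of the 3 belonged to Olfr1180, of family MOR225. It had 21.4, 32.0 and 18.1 CPM with floral, 28.5, 33.0 and 21.1 CPM with mint and 24.0, 21.3 and 22.4 CPM after floral-mint exposure, against 0.498, 1.09 and 1.24 CPM in controls. All 9 fragrance libraries were far above the controls, and the calls were kept without each mouse. The log2 changes were 4.67 (SE 0.285), 4.88 (SE 0.286) and 4.59 (SE 0.286), with edgeR adjusted p of 1.29e-07, 6.39e-08 and 1.37e-07. In the AD and OC sets Olfr1180 was called for no odor.

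The 3 genes Olfr1179, Olfr1181 and Olfr1184, near Olfr1180 and of the same family, also rose with mint. Olfr1179, next to it, had 0.506, 0.894 and 0.861 CPM with floral, 4.84, 5.30 and 3.37 CPM with mint and 3.13, 2.54 and 2.79 CPM after floral-mint exposure, against 0.498, 1.13 and 0.399 CPM in controls. Its floral libraries lay within the range of the controls, and its mint and floral-mint libraries lay above them. The log2 change was 2.73 with mint (SE 0.347, edgeR adjusted p = 0.000168) and 2.05 with floral-mint (SE 0.348, edgeR adjusted p = 0.00204). Olfr1181 and Olfr1184 rose with mint at 1.98 and 1.44 (edgeR adjusted p of 0.0166 and 0.00999), and Olfr1181 lost the call without FM control mouse 3, at 1.61 (edgeR adjusted p = 0.0711). The coding sequences of Olfr1179 and Olfr1180 are 70.2% identical, and those of Olfr1181 and Olfr1184 are 88.0% identical.

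Olfr1200, also of MOR225, was the member that rose with the most odors. In the FM set it had 15.8, 19.2 and 20.4 CPM with floral, 19.8, 35.3 and 29.2 CPM with mint and 23.4, 18.9 and 12.8 CPM after floral-mint exposure, against 4.45, 5.14 and 3.81 CPM in controls. In the OC set it had 68.4, 24.6 and 10.4 CPM with octanal and 25.2, 14.2 and 13.1 CPM with the mixture, against 1.98, 2.54 and 1.97 CPM in controls. The octanal mice differed among themselves, yet all were above the controls. Its log2 changes were 2.04, 2.65 and 2.03 in the FM set (edgeR adjusted p of 8.81e-05, 4.62e-06 and 8.13e-05), 3.99 with octanal (SE 0.532, edgeR adjusted p = 6.21e-05) and 3.01 with the OC mixture (SE 0.523, edgeR adjusted p = 0.000518). Without octanal mouse 1 the octanal change was 3.00. With cis-3-hexenol it was 1.56 and was not called (edgeR adjusted p = 0.0907). Olfr1196 and Olfr1197, its near neighbours in the same family, were called higher for no odor. With mint they had 1.80, 1.69 and 2.42 CPM (Olfr1196) and 3.68, 3.45 and 5.19 CPM (Olfr1197), against 2.19, 1.70 and 2.78 CPM and 4.86, 5.97 and 3.25 CPM in controls, and both overlapped the controls. Olfr1196 and Olfr1197 are 97.0% identical to each other and 88.0% and 88.8% identical to Olfr1200, with gaps counted as differences. Olfr1200 has 1011 coding bases and Olfr1196 and Olfr1197 have 945 each, so many of the 121 and 113 differing columns are gaps. Transcripts of this pair share nearly identical stretches with that of Olfr1200, so the counts of one gene may hold reads of another. The 120 bases with the most differences among the 3 genes are shown to set the gene that rose with 6 odors beside this pair. They are coding bases 523 to 642 on the minus strand, with capitals at the 17 columns where the 3 are not all alike. At 8 of these Olfr1200 alone differs, at 3 Olfr1196 alone and at 6 Olfr1197 alone.
Olfr1200 (chr2:88767672-88767791, minus strand): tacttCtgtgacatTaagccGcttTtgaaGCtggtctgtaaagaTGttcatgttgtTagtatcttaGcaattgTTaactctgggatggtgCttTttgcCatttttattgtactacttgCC
Olfr1196 (chr2:88700686-88700805, minus strand): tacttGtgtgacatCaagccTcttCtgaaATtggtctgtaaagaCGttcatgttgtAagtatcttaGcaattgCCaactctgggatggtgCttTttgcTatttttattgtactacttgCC
Olfr1197 (chr2:88728956-88729075, minus strand): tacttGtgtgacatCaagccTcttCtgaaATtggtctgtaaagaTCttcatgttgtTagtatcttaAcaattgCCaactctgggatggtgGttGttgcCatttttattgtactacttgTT

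Among the 6 members of MOR232, 3 rose with floral. Olfr1255, of MOR232, had 18.9, 19.5 and 13.6 CPM with floral, 11.8, 16.6 and 15.3 CPM with mint and 22.4, 13.3 and 15.7 CPM after floral-mint exposure, against 2.57, 1.81 and 2.11 CPM in controls. The log2 changes were 3.00, 2.75 and 2.98, with edgeR adjusted p of 1.41e-06, 2.52e-06 and 9.7e-07. Olfr1259, a MOR232 gene on the opposite strand, rose with floral at 1.03 (SE 0.181, edgeR adjusted p = 0.00243) and floral-mint at 1.19 (SE 0.180, edgeR adjusted p = 0.000886) but was not called with mint, at 0.30. The 2 coding sequences are 92.7% identical with gaps counted as differences, and 69 of the 948 alignment columns differ. Olfr1255 has 933 coding bases and Olfr1259 has 930, so many of these columns are gaps. Stretches of both sequences are shown because both genes rose with floral and floral-mint, by different amounts, while Olfr1255 was also called with mint. Another reason is that reads of such similar genes can be hard to separate. The 120 bases with the most differences are coding bases 736 to 855 of Olfr1255 and 718 to 837 of Olfr1259, with capitals at the 14 columns that differ.
Olfr1255 (chr2:89817063-89817182, plus strand): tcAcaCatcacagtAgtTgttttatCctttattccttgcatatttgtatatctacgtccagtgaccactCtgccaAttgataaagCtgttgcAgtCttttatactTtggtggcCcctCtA
Olfr1259 (chr2:89943277-89943396, minus strand): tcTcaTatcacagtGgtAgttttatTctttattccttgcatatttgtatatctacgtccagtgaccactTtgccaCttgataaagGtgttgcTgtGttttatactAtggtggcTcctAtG

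Olfr1264, which fell with octanal, rose in the FM set. It had 16.6, 18.6 and 9.97 CPM with floral, 30.9, 36.1 and 44.3 CPM with mint and 37.3, 25.6 and 25.6 CPM after floral-mint exposure, against 9.47, 7.89 and 7.62 CPM in controls. Every fragrance library was above the controls, and every mint and floral-mint library was above every floral library. The log2 change was 2.15 with mint (SE 0.216, edgeR adjusted p = 1.63e-05) and 1.82 with floral-mint (SE 0.215, edgeR adjusted p = 0.000101). With floral it was 0.85, a call lost without control mouse 2 or 3 or floral mouse 1 or 2, at 0.67 to 0.82 (edgeR adjusted p of 0.0558 to 0.0777). Olfr1257, which fell with decanal, rose with floral at 1.01 (SE 0.152, edgeR adjusted p = 0.000746), with 44.0, 42.8 and 35.4 CPM against 20.8, 23.9 and 15.7 CPM in controls. Olfr1155, called with octanal, rose with mint at 2.36 (SE 0.319, edgeR adjusted p = 0.000277), with 2.83, 4.71 and 4.55 CPM against 0.534, 1.05 and 0.758 CPM in controls. Olfr1201 rose with floral at 2.15 and floral-mint at 2.00 (edgeR adjusted p of 0.00201 and 0.00341), and Olfr1278, the 1 member of MOR245 that rose, rose with mint at 1.77 (edgeR adjusted p = 0.00190).

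Of the lower calls with the fragrances, those of Olfr1232 were kept without each mouse. Olfr1232, of MOR233, fell to 6.27, 5.44 and 5.66 CPM with floral and 6.44, 5.67 and 7.58 CPM with floral-mint, against 10.6, 13.8 and 12.2 CPM in controls. Its control mean was highest in this set, at 12.2 CPM, against 6.63 CPM in AD and 4.27 CPM in OC controls. Its log2 changes were -1.07 (SE 0.171, edgeR adjusted p = 0.00126) and -0.89 (SE 0.169, edgeR adjusted p = 0.00421). The other 7 lower calls had log2 changes of -0.44 to -1.45 and were each lost without at least 2 of the 6 mice. Between the blend and each component no member was called, higher or lower. Against floral, 0.115% and 0.00521% of all genes tested were called higher and lower. At an unadjusted edgeR p under 0.05, 7 of 106 members were higher and 8 lower. Of all 19204 genes tested, 851 were higher and 774 lower at that threshold. DESeq2 called 2 members higher and 1 lower. Against mint, 0.0625% and 0.0417% of all genes tested were called higher and lower. At an unadjusted edgeR p under 0.05, 9 of 106 members were higher and 9 lower, where 382 and 472 of all 19204 genes were. DESeq2 called 3 members higher and 3 lower. Without mint mouse 1 the blend against mint gave 2 calls by edgeR.

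**Figure D3:**
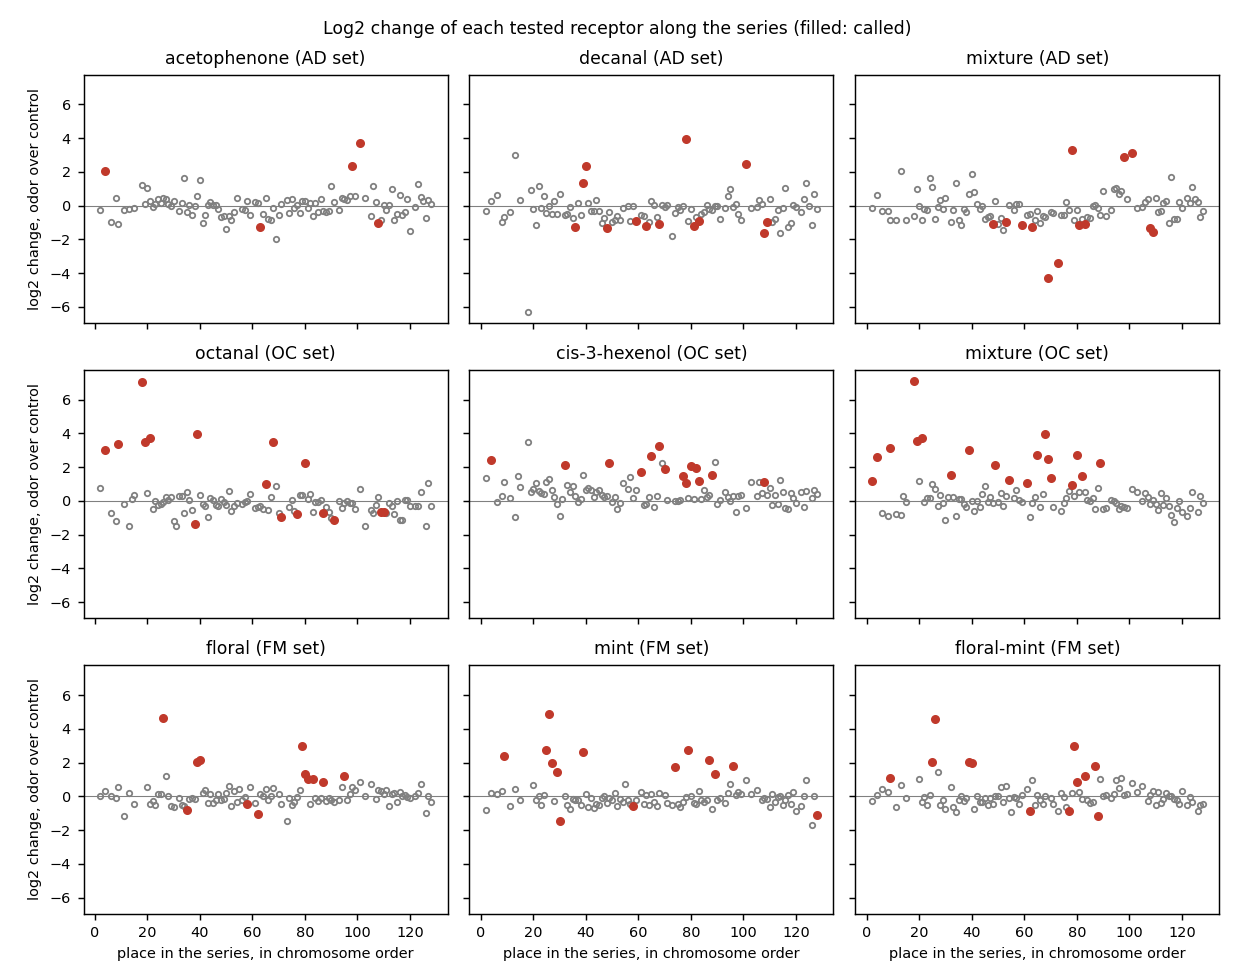
Log2 change (odor over control, vertical axis) of every tested member against its place in the series from 1 to 128 in chromosome order, 1 panel per odor. The topmost points with octanal and the OC mixture are Olfr1166, whose controls were at 0, so its fitted change is no bound. Filled red points were called at adjusted p under 0.05 and open points were not. The called points for cis-3-hexenol run from place 4 (Olfr1148) to place 108 (Olfr1294), and those for the acetophenone-decanal mixture in the upward direction lie at places 78, 98 and 101.

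MOR245 is the largest family, with 20 members of which 19 were tested, and 1 rose and 1 fell at least once. MOR248 has 16 members, 13 of them tested, of which 4 rose at least once and 3 fell at least once. MOR231 has 12 members, at places 64 to 80 of the series, and 6 rose and 4 fell at least once. With cis-3-hexenol 5 of the 12 rose, with the OC mixture 4, and with octanal 3, while 1 rose with decanal. MOR225 has 10 members and 5 rose at least once, 5 of them with mint. MOR174 has 12 members, 9 of them tested, and 4 rose, all with octanal. MOR233 has 13 members, of which 1 rose and 5 fell at least once. MOR173, MOR226 and MOR234 had no call. These counts describe the members and were not tested against other families.

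Coding sequence identity was set beside the difference in response. Gaps count as differences in this identity, which places Olfr1200 with Olfr1196 and with Olfr1197 among the pairs from 80% to 90%. Over 5356 pairs of the 104 members tested in all 3 sets, the median over the 9 odors of the absolute difference of their log2 changes had a median of 0.45 in the 24 pairs at 90% identity or more, 0.48 in the 102 pairs from 80% to 90% and 0.63 in the 3203 pairs under 60%. Of the 8 pairs at 90% or more in which either gene rose with any odor, 2 had both genes rise with the same odor, namely Olfr1280 with Olfr1283 and Olfr1255 with Olfr1259. Of such pairs from 80% to 90% both rose with the same odor in 7.32%, with 16.4% from 70% to 80%, 10.4% from 60% to 70% and 7.76% under 60%. Counting pairs of members tested in any set adds the 3 pairs among Olfr1166, Olfr1167 and Olfr1170, all of which rose with octanal and the OC mixture. The numbers are then 5 of 12 pairs at 90% or more, or 41.7%, against 9.09% from 80% to 90%, 16.8% from 70% to 80%, 9.95% from 60% to 70% and 8.05% under 60%. Reads shared between near-identical genes could count for both, and their part in these shares was not tested. Olfr1201 and Olfr1205 are 95.8% identical, with a median difference of 1.77. With floral, Olfr1201 had 1.92, 1.94 and 1.56 CPM against 0.320, 0.492 and 0.405 CPM in controls, while Olfr1205 had 3.79, 3.61 and 3.77 CPM against 3.38, 2.85 and 2.43 CPM in controls and was called for no odor. Olfr1265 and Olfr1269, neighbours at 95.7% identity, had log2 changes of -1.16 and 1.02 with floral-mint, of which only the first was called. The pairs share genes and each odor of a set shares its controls, so this is a description with no test.

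**Figure D4:**
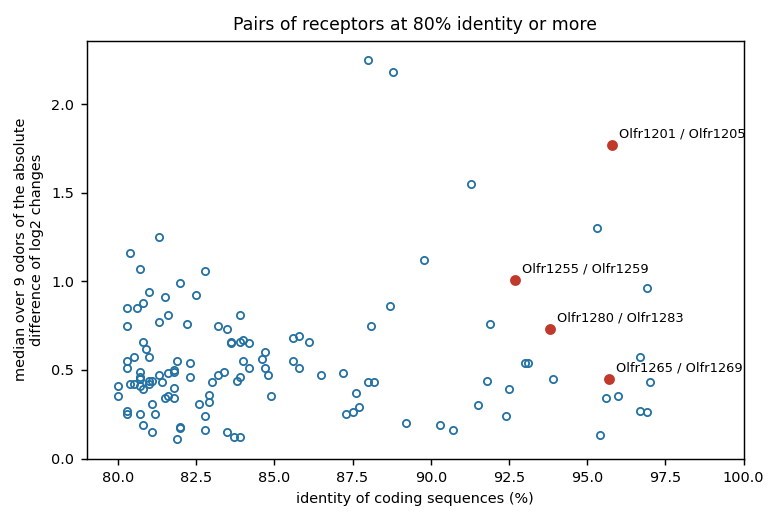
Each point is a pair of members tested in all 3 sets with coding sequences at least 80% identical (horizontal axis, percent). The vertical axis is the median over the 9 odors of the absolute difference of their log2 changes, with 4 named pairs in red, from 0.45 for Olfr1265 and Olfr1269 to 1.77 for Olfr1201 and Olfr1205.

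The 128 genes took a smaller share of receptor counts in every odor group but cis-3-hexenol than in controls. Acetophenone libraries had a share of 8.39% ± 1.51, decanal libraries 8.30% ± 0.225 and AD mixture libraries 8.89% ± 1.46, against 12.7% ± 0.125 in AD controls (SD, n = 3 mice). Octanal libraries had 7.10% ± 0.508, hexenol libraries 14.0% ± 0.373 and OC mixture libraries 8.25% ± 0.791, against 14.4% ± 0.764 in OC controls. Floral libraries had 9.89% ± 0.116, mint libraries 8.58% ± 0.346 and floral-mint libraries 8.80% ± 0.151, against 11.3% ± 0.262 in controls. With cis-3-hexenol the libraries overlapped the controls, at 13.6% to 14.3% against 13.6% to 15.1%. The mean summed level of the 128 genes was lower than in controls with decanal and the AD mixture and higher with the other 7 odors. In the AD set it was 454 ± 35.9 CPM in acetophenone libraries, 381 ± 10.5 CPM in decanal libraries and 408 ± 76.8 CPM in AD mixture libraries, against 446 ± 31.6 CPM in AD controls. It reached 451 ± 52.7 CPM in octanal libraries, 568 ± 38.9 CPM in hexenol libraries and 538 ± 54.5 CPM in OC mixture libraries, against 348 ± 20.9 CPM in OC controls, while all receptor genes together were at 6396 ± 1099 CPM with octanal and 2429.9 ± 268 CPM in controls. In the FM set the sum was 438 ± 25.5 CPM in floral libraries, 422 ± 30.3 CPM in mint libraries and 416 ± 39.2 CPM in floral-mint libraries, against 348 ± 26.3 CPM in FM controls. The acetophenone mean differed from that of its controls by less than the SD in either group, and the AD mixture mean by less than the SD between its own mice. The share has no p, since the members were chosen with earlier results of these data known. The 7 left-out symbols count in the receptor total but not in the 128, and their part in the lower shares was not tested.

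**Figure D5:**
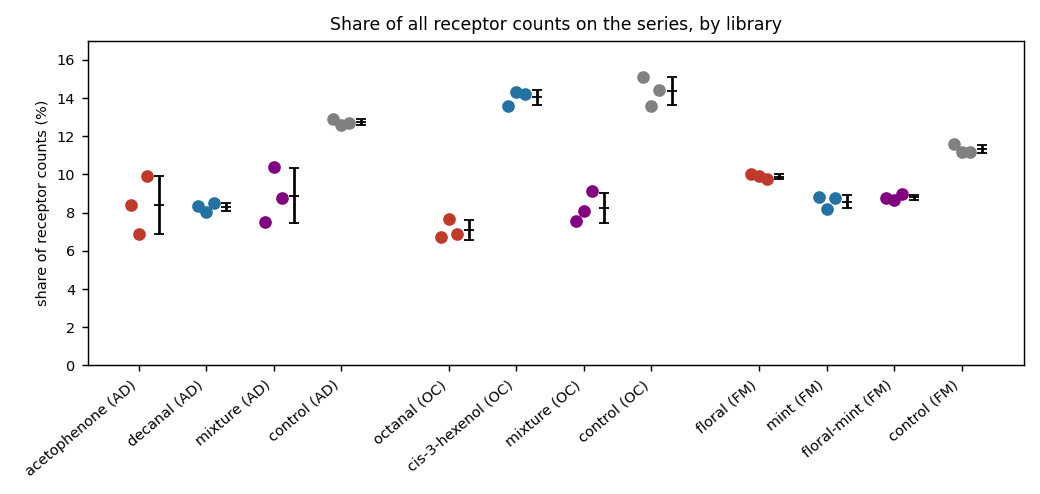
Share of all receptor counts on the 128 genes (percent, vertical axis from 0) in each of the 36 libraries, with odors at left and controls at right within each set. Points are mice and bars are mean ± SD (n = 3). Octanal sits lowest at 7.10% and the cis-3-hexenol group, at 14.0%, overlaps its controls.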

How the data were processed

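The authors deposited 3 tables of estimated counts per gene, 1 for each set of 12 libraries, from stranded mRNA sequencing of pS6 immunoprecipitates, per the labels' protocols. Per the submitters' processing notes, the genome build was GRCm39. These notes also list R 4.4.2, the aligner STAR 2.7.10b and the quantifier Salmon 1.10.1. Which tool made the counts, how it used strand and which gene annotation it used are not given in the sources used here. In each library, 11.1% to 16.4% of the values were not whole, and the estimated counts were rounded before testing. Gene names, coordinates and coding sequences were taken by gene identifier from GENCODE vM21 (GRCm38), and MOR names from RefSeq (GRCm38.p6).

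Each set was fitted on its own with edgeR 4.0.16 (R 4.3.3): 12 libraries, 4 group means, a filter at a minimum count of 10 and a total of 15, TMM scaling, the two-sided quasi-likelihood test and Benjamini-Hochberg adjustment over all genes tested, called under 0.05. CPM use the TMM library sizes, and SEs follow from the F statistic. The fit was also run on simulated counts, with changes set in a small part of the genes and in a single odor group. That setting is simpler than these data, and its outcome is not given here. Near copies were receptor transcripts at 95% identity or more over 200 bases (blastn 2.17.0). Coding sequences were compared as nucleotides, with MAFFT 7.526 for the printed stretches and Biopython 1.88 for pairs. Identity of a pair was the share of all columns of a global alignment that matched, so gaps counted as differences. Protein sequences were not used here, although a comparison of proteins had been planned.

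Members were named by rank of p among calls whose groups do not overlap, by control level, by number of calls and by identity to another member. Others, such as the members whose calls were lost when a mouse was left out, were chosen after their values were seen. The members and lists were chosen with earlier results of these data known. The labels do not tie equal replicate numbers across groups to a shared animal or day. P-values set a difference of group means against a spread between mice within groups. That spread was estimated from all 12 libraries of the set and moderated across genes. Alternatives were another scaling (DESeq2 size factors or receptor genes), DESeq2 1.42.0, no filter, other sets of libraries in the fit, a replicate block and each mouse left out.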

Additional observations from a re-analysis of the deposited data

How the results depend on the processing

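No called change turned direction under any alternative run, but changes near 0 that were not called did. With scaling to receptor genes, Olfr1256 with mint was -0.05 (-0.01 with no filter), Olfr1294 with floral-mint -0.02, and Olfr1295 -0.05 with cis-3-hexenol and -0.22 with the octanal-hexenol mixture. With each mouse left out, Olfr1256 ran from -0.55 to 0.02 with decanal and from -0.23 to 0.13 with mint. Olfr1294 ran from -0.44 to 0.17 with the octanal-hexenol mixture, from -0.31 to 0.04 with mint and from -0.15 to 0.20 with floral-mint, and Olfr1295 from -0.07 to 0.19 with the octanal-hexenol mixture. Olfr1233 ran from -0.63 to 0.22 (octanal), -0.46 to 0.29 (hexenol alone) and -0.33 to 0.38 (their mixture) in the OC set, and from -0.13 to 0.46 with floral and from -0.17 to 0.31 with mint. The count of members called with acetophenone, 5, was 3 with scaling to receptor genes, 9 with DESeq2, 2 with only the 6 libraries compared and 9 when 1 fit held all 36 libraries. The mixture with decanal, at 13, gave 21 with DESeq2, 20 with no filter and 22 with all 36 libraries. Against acetophenone, its 9 became 4 with receptor scaling and 16 with all 36 libraries, and against decanal its 1 became 2 with DESeq2, with no filter and with all 36 libraries. Octanal, at 16, gave 9 with only 6 libraries. The octanal-hexenol mixture against octanal, at 3, gave 5 with DESeq2, 10 with no filter and 1 with only 6 libraries, and against cis-3-hexenol its 11 became 7 with receptor scaling. Mint, at 14, and floral-mint, at 12, each gave 7 with all 36 libraries. The blend against floral, at 0, gave 1 with receptor scaling, 3 with DESeq2, 4 with no filter and 2 with only 6 libraries, and against mint, at 0, it gave 6 with DESeq2 and 9 with no filter. The cause of these shifts was not tested.

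With each mouse left out in turn, the counts ran from 2 to 4 (acetophenone), 8 to 14 (decanal), 11 to 15 (their mixture), 5 to 9 and 0 to 1 (that mixture against acetophenone and decanal), 11 to 16 (octanal), 9 to 14 (cis-3-hexenol), 15 to 19 (their mixture), 1 to 3 and 3 to 10 (that mixture against octanal and cis-3-hexenol), 8 to 11 (floral), 10 to 14 (mint), 8 to 12 (floral-mint), and 0 to 0 and 0 to 2 (the blend against floral and mint).

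There was no clear sign that equal replicate numbers pair the samples, though this check cannot establish that they do not. Same-numbered libraries of different groups had correlations of their deviations above 0.1 in 2, 5 and 3 of 18 pairs in the AD, OC and FM sets. These correlations ran from -0.19 to 0.17, -0.10 to 0.28 and -0.37 to 0.22. Those of libraries with other numbers ran from -0.21 to 0.24, -0.38 to 0.29 and -0.28 to 0.29. With a replicate block the acetophenone count was 3, and no other count moved by over 1.5 times.

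The ratio of the members' share of counts, odor over control, was 0.660, 0.652 and 0.699 in the AD set, 0.494, 0.974 and 0.574 in the OC set and 0.873, 0.758 and 0.777 in the FM set, odors in the order given above. Over all counts of the library it was 0.965, 0.807 and 0.859, 1.21, 1.80 and 1.50, and 1.15, 1.12 and 1.11. The median difference between similar pairs, 0.47 at 80% identity or more, was 0.51 at 70% and 0.45 at 90%. Members with few counts were not testable at this depth, and intervals for them were not given.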
